A study of Mus musculus with 6 samples.

Results

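The regions described here are 271 windows of 1000 bases in which DNA methylation was lower in intestinal organoids given DM-aKG than in control organoids. They were chosen from 24947 windows, and they make up 1.09% of them. A window qualified when the mean level of the 3 DM-aKG libraries was at least 4 percentage points below that of the 3 control libraries, and when every DM-aKG library lay below every control library. These same values chose the windows, so the direction and the lack of overlap are properties of the choice and carry no test. The mirrored rule, higher by 4 points or more with no overlap, was met by 1223 windows, or 4.9%. Without a minimum size, 633 windows (2.54%) had every DM-aKG library below every control and 2213 (8.87%) had every one above. With overlap allowed, 1003 windows (4.02%) were lower in mean by 4 points or more and 3680 (14.8%) higher. With the library means equalised, which moves the median difference of all windows to -0.251 points in place of 0.8, 580 windows met the rule and 722 the mirrored one. The libraries are of bulk DNA, so a different mix of cells and a different level within cells cannot be told apart.

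Cytosine methylation at CpG dinucleotides is laid down and copied by DNA methyltransferases and is the usual state of CpGs in mammalian gene bodies and intergenic DNA, while CpG islands at active gene starts are mostly free of it. TET enzymes remove it stepwise by oxidising 5-methylcytosine, and they use α-ketoglutarate as a co-substrate. DM-aKG is a dimethyl ester of α-ketoglutarate that crosses cell membranes. In the intestine, Wnt signalling keeps crypt stem cells dividing, and Apc restrains that signal.

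The assay was reduced representation bisulfite sequencing, which is restricted to fragments rich in CpGs, on 3 libraries of organoids treated with DM-aKG and 3 libraries of organoids under the control treatment. Both groups were mouse intestinal organoids of the Apc Min genotype, which carries a truncating allele of Apc, and both were kept in organoid medium low in glutamine. The labels describe the material as primary cells and the series text calls the 3 libraries of each group biological replicates. The sources used here do not state the dose, the duration, the age of the animals or whether the organoids came from tumour or other epithelium. No expression was measured in these libraries, so the labelled tissue could not be checked against marker genes.

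Each value is a percent of methylation at 1 cytosine in 1 library, with no read count, so the depth behind every level is unknown. Values from 1 to 39 do not occur, and a 0 can be either a level under 40% or no call; it was treated as no value. Windows therefore hold positions at 40% or more in all 6 libraries. From row 390209 of the table onward, chromosomes X and Y left aside, levels in control replicates 1 and 2 were unrelated to those in the other 4 libraries. The correlations were -0.00595 to -0.00199 over positions with a value in all 6 libraries. The rows from 390209 onward were not used. The rows used cover chromosomes 1, 2, 10 to 19 and part of chromosome 3. Over all 24947 windows the libraries averaged 88.3%, 88.4% and 88.8% with DM-aKG, against 86.6%, 87.8% and 87.9% in the controls.

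The chosen windows ran against that general offset. Across the 271 windows the library means were 81.5%, 82.1% and 80% with DM-aKG, against 89.5%, 86.7% and 87.3% in the controls. The median difference was -5.82 points, with a middle range of -7.77 to -4.72 and an extreme of -17.7. Of the 271, 142 were lower by 4 to under 6 points, 63 by 6 to under 8, and 31 by 10 points or more. The gap between the highest DM-aKG library and the lowest control had a median of 1.4 points, was under 1 point in 99 windows and reached 4 points in 23. DM-aKG replicate 3 was the lowest treated library in 135 windows, and control replicate 1 was the highest control in 159, although control replicate 1 had the lowest mean of all 6 libraries over the whole set of windows.

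**Figure D1:**
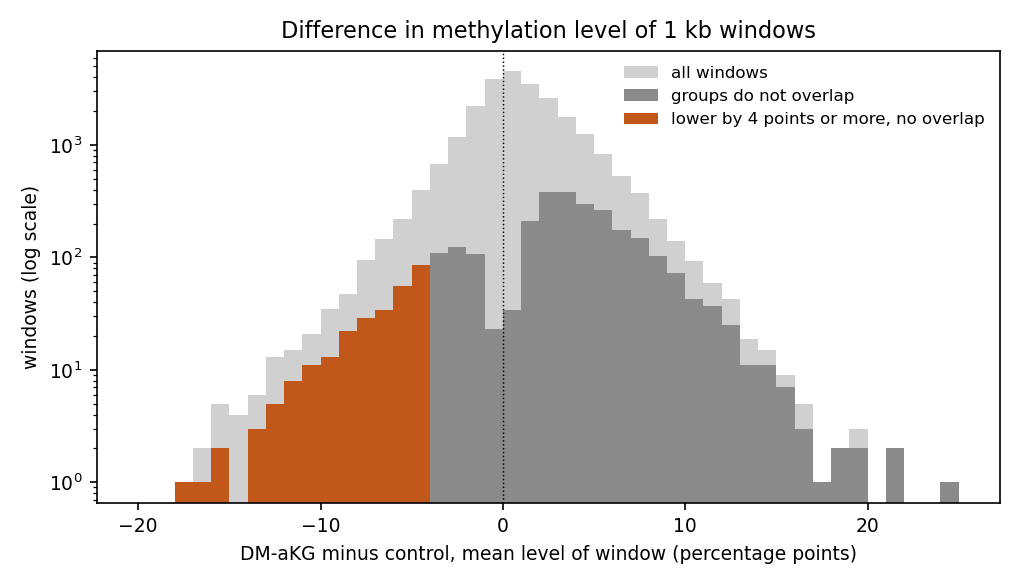
Number of 1 kb windows (vertical axis, log scale) by the difference in mean methylation level, DM-aKG minus control, in percentage points (horizontal axis, 1-point bins). Light grey shows all 24947 windows and dark grey those whose groups do not overlap. Orange shows the 271 windows lower by 4 points or more with no overlap. The far side of 0 holds more windows: 3680 were higher by 4 points or more, of which 1223 had no overlap.

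Few of the windows lay at gene starts, and 3 of those had at least 5 measured cytosines within the stretch from 250 bases before to 50 bases after the start of a protein-coding gene. Their sequences are shown because the lower levels can be read there cytosine by cytosine. A lncRNA start with 5 such cytosines, that of Gm41077 in the window with the twelfth largest decrease, is added. A start of the lncRNA Gm31373 also had 5 such cytosines and is not printed. At 1 of these the mean was 7.0 points higher with DM-aKG, and at the others it was lower. Capitals mark the CpG dinucleotides with a level in all 6 libraries, which can be measured on either strand. The sequences are from RefSeq, GRCm38.p6, the assembly of mm10, and are written 5′ to 3′ along the gene. Ggt1 lies at chr10:75573245-75573544 on the plus strand, Dgka at chr10:128737563-128737862 on the minus strand, Pkn3 at chr2:30078448-30078747 on the plus strand and Gm41077 at chr13:119755143-119755442 on the plus strand.
Ggt1: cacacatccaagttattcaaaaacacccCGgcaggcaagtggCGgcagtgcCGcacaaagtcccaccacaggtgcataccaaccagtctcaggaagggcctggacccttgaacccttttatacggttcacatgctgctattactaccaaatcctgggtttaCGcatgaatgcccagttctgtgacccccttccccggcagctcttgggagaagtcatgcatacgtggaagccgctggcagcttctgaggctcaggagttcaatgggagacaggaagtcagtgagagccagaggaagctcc
Dgka: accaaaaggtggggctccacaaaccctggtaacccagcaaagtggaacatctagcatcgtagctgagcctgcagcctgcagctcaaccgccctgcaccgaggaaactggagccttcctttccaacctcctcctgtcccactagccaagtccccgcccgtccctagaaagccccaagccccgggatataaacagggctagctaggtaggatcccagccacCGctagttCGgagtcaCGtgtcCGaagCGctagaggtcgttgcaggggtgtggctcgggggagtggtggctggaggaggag
Pkn3: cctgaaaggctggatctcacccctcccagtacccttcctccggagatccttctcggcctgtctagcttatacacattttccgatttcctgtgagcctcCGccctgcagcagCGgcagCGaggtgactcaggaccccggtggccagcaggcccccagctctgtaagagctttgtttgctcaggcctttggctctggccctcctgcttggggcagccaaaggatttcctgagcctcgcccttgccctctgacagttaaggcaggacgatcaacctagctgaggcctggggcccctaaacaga
Gm41077: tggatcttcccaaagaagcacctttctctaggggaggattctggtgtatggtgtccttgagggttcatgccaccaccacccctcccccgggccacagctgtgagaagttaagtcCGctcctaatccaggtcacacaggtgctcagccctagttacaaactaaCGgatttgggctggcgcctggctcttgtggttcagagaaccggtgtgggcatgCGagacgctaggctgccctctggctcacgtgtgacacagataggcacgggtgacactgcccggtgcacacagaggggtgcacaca
These stretches hold 8 CG dinucleotides at Ggt1, 13 at Dgka, 9 at Pkn3 and 10 at Gm41077. Over all 32851 RefSeq start stretches of 300 bases the median is 7, with a middle range of 3 to 20. The letters CCGG, which read the same on both strands and overlap the CG count, occur 2 times at Ggt1, once at Dgka, 2 times at Pkn3 and 3 times at Gm41077, and at least once in 52.8% of all such stretches.

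Ggt1 encodes γ-glutamyltransferase, the surface enzyme that splits the γ-glutamyl bond of glutathione. Its window, chromosome 10 from 75573000 to 75573999, had 8 complete positions and lies at 1 of 4 RefSeq starts of the gene. The window level was 66.1%, 78.9% and 80.4% with DM-aKG, against 93.6%, 83.4% and 85.0% in the controls. The means were 75.1% ± 7.83 with DM-aKG and 87.3% ± 5.51 in the controls (SD, n = 3 each), a difference of -12.2 points. Of the 8 positions, 7 lie in the printed stretch and all 7 had a lower mean with DM-aKG. At position -208 from the start the levels were 50%, 71% and 80% with DM-aKG and 100%, 91% and 100% in the controls. At position -89 they were 75%, 86% and 92% with DM-aKG and 100% in each control. The eighth position, inside the gene at 75573904, went the other way, with a mean of 73.7% with DM-aKG and 56.0% in the controls. Without DM-aKG replicate 1, the lowest library, the window difference was -7.71 points.

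Dgka encodes diacylglycerol kinase alpha, which turns diacylglycerol into phosphatidic acid. Its window on chromosome 10 from 128737000 was at 66.1%, 60.4% and 62.9% with DM-aKG, against 79.4%, 67.6% and 70.5% in the controls, a difference of -9.38 points. All 8 positions lie between -31 and -4 from a RefSeq start, and 6 were lower in mean and 2 higher. The CpG at -22 and -23 showed the widest contrast, at 69%, 62% and 74% with DM-aKG and 100% in each control on the cytosine of the plus strand of the genome. Its partner cytosine on the other strand averaged 84.0% with DM-aKG and 87.7% in the controls. Without control replicate 1 the window difference was -5.94 points.

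Pkn3, a kinase of the protein kinase N family, had a window on chromosome 2 from 30078000 at 66.0%, 62.2% and 58.4% with DM-aKG, against 69.0%, 70.2% and 66.2% in the controls. All 5 positions lie between -152 and -133 from the start, where 4 were lower in mean and 1 was equal. The highest DM-aKG library, at 66.0%, stood just under the lowest control, at 66.2%, and the difference was -6.27 points. Nim1k, a serine/threonine kinase gene, and the lncRNA Gm41077 start in the same window on chromosome 13 from 119755000. Its levels were 54.3%, 54.3% and 49.2% with DM-aKG, against 79.5%, 57.2% and 57.2% in the controls. All 6 positions were lower in mean, and the difference of -12.0 points became -4.56 without control replicate 1 and -19.9 with 0 as a level, which means that rows listed at 0 entered the means as 0%.

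**Figure D2:**
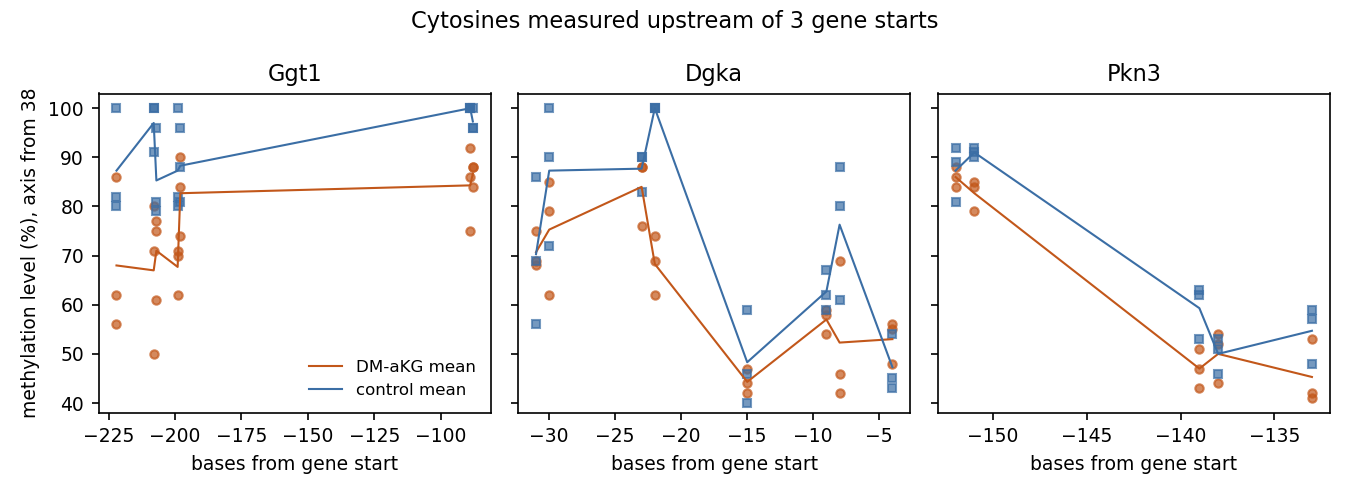
Methylation level (%, vertical axis from 38) of each cytosine with a value in all 6 libraries, by its distance in bases from the RefSeq gene start (horizontal axis), in the chosen windows at Ggt1, Dgka and Pkn3. Points are libraries, circles for DM-aKG and squares for controls, and lines join the means of 3; at Ggt1 the DM-aKG mean is lower at all 7 cytosines.

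Other protein-coding starts were held by 4 of the chosen windows. The window at Dcdc2c, a doublecortin domain gene, had 11 positions, all lower in mean, at 65.0%, 66.9% and 61.1% with DM-aKG and 74.9%, 71.0% and 78.4% in the controls. Its difference was -10.4 points, and 0.307 when rows listed at 0 were counted as a level of 0. Hps1, needed to build lysosome-related organelles, shares its window with the lncRNA Gm16244, and all 7 positions were lower in mean. That window differed by -4.67 points, by -2.19 without control replicate 1 and by -8.89 with 0 as a level. Another window of Hps1 differed by -6.93 points and did not meet the rule. Pgam2, the muscle form of phosphoglycerate mutase, differed by -5 points, and by -9.05 with 0 as a level. Pde7b, a cyclic AMP phosphodiesterase gene, differed by -4.83 points over 4 positions, and by 4.78 with 0 as a level. On the chromosomes with RefSeq start sequences, 8 of 257 chosen windows, or 3.11%, held a protein-coding start, against 430 of 23665 windows of the whole set, or 1.82%.

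The 12 largest decreases lie in or beside different genes, most of them over 1000 bases from a gene start. The window with the largest difference, -17.7 points, lies on chromosome 10 from 129021000, outside genes and 8784 bases from the olfactory receptor gene Olfr763. Its levels were 85.0%, 80.2% and 75% with DM-aKG, against 93.4%, 100% and 100% in the controls. It rests on 5 positions, of which 1 was at 100% in all 6 libraries. With 0 as a level its difference was -7.48 points.

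Pik3r5 encodes a regulatory subunit of phosphoinositide 3-kinase gamma. Its window, 62.4 kb into the gene on chromosome 11, was at 57.0%, 59.8% and 66.2% with DM-aKG, against 79.2%, 79.0% and 74.0% in the controls. The means were 61.0% ± 4.75 with DM-aKG and 77.4% ± 2.96 in the controls (SD, n = 3 each), and all 4 positions were lower in mean. The difference was -16.4 points, and -3.07 with 0 as a level, which is outside the rule. Of the 5 windows of Pik3r5, 2 were lower and 3 higher in mean, the highest by 2.81 points.

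Slc13a2 encodes a sodium-coupled transporter of dicarboxylates, a group that includes α-ketoglutarate, and its opposite-strand RNA gene Slc13a2os overlaps it. The window shared by both, chromosome 11 from 78397000, lies 24.7 kb from the Slc13a2 start and was at 66.8%, 74.0% and 59.0% with DM-aKG, against 89.0%, 82.0% and 76.2% in the controls. Its 4 complete positions are on 2 CpGs. Among the 8 rows of the window, the DM-aKG libraries had 10 values listed at 0 and the controls had 1. The difference was -15.8 points, and -26.5 with 0 as a level.

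Rara, the retinoic acid receptor alpha gene, had a window 5.63 kb from a start on chromosome 11 from 98970000. It was at 58.4%, 67.8% and 56.8% with DM-aKG, against 82.2%, 69.0% and 69.0% in the controls. At its position 98970603 the levels were 43%, 56% and 48% with DM-aKG and 92%, 73% and 70% in the controls. Of the 7 windows of Rara, 5 were lower and 2 higher in mean, with a median of -2.25 points.

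Nr5a2 encodes a nuclear receptor active in the crypts of the gut. Its window on chromosome 1 from 136952000 is centred 1.13 kb downstream of a RefSeq start and had 11 positions, all of them lower in mean. The levels were 70.6%, 71.2% and 66.3% with DM-aKG, against 94.0%, 72.5% and 78.2% in the controls. Control replicate 1 stood far above the other controls there. Without it the difference was -6 points in place of -12.2, and that of Rara was -8.0 in place of -12.4.

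Further windows among the 12 largest decreases were in or beside 4 other genes. Scube1, a secreted and cell-surface protein with EGF-like repeats, had a window of 9 positions at 81.7%, 79.7% and 75% with DM-aKG, against 87.1%, 94.6% and 94.0% in the controls. Scube1 also held windows in the other direction: of its 16 windows 13 were higher in mean, 2 were among the chosen and 1 met the mirrored rule. Pitpnc1, a phosphatidylinositol transfer protein gene, had 19 windows, of which 16 were higher in mean, while its window 211 kb from the start was at -13.4 points with all 5 positions lower, and at -7.14 with 0 as a level. Osbpl6, of the oxysterol-binding protein family, differed by -12.2 points, and a window 543 bases from 2310043L19Rik by -15.9, or by -26.5 with 0 as a level.

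**Figure D3:**
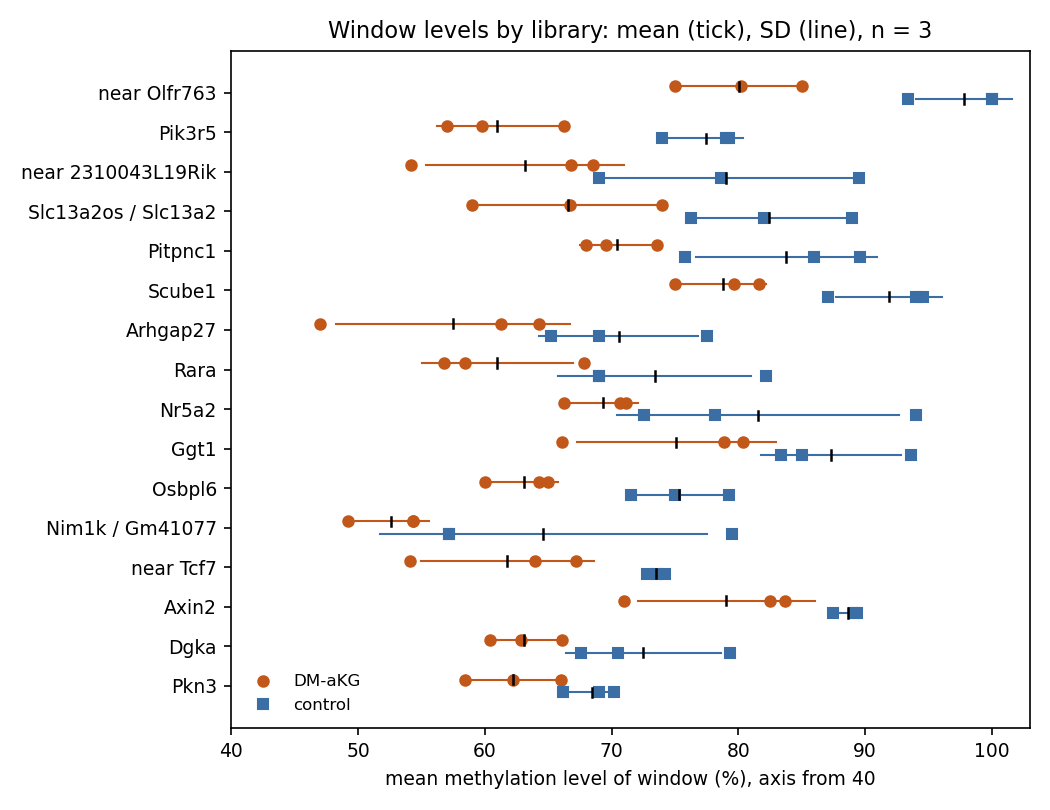
Mean methylation level (%, horizontal axis from 40) of the 12 windows with the largest decrease and of those near Tcf7 and in Axin2, Dgka and Pkn3. Points are libraries, circles above for DM-aKG and squares below for controls; ticks mark group means and lines the SD (n = 3), and the groups do not overlap by the rule of choice.

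Genes of the lists on Wnt signalling, gut cell types, Notch, methylation and metabolism held few of the windows. Of 8270 genes with any window in their span or within 1000 bases of it, 244 (2.95%) held a chosen window. Of 195 such genes on the 16 lists, 6 did, or 3.1%, which is close to the share over all genes. They were Axin2, Tcf7, Jag2, Maml3, Ezr and Kdm6b. Counting gene spans alone, 5 of 189 did, since the window of Tcf7 lies 617 bases outside the gene. By comparison 22 of the 195 held a window of the mirrored rule, and 928 genes (11.2%) did so in all.

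Axin2 and Tcf7 were the members of the list of 15 measured intestinal stem cell genes and Wnt targets that held a chosen window. Axin2 is a scaffold of the β-catenin destruction complex and a feedback target of Wnt signalling, and it was also the member of the 19 measured Wnt antagonists with one, while Axin1 and Sox7 held windows of the mirrored rule. Its window lies 14.2 kb into the gene on chromosome 11 from 108934000. The levels were 82.5%, 83.7% and 71.0% with DM-aKG, against 89.3%, 89.2% and 87.5% in the controls, and DM-aKG replicate 3 was the lowest by over 10 points. Within the window, 4 of 6 positions were lower in mean, all among the first 4 along the chromosome. The first, at 108934710, was at 65%, 70% and 43% with DM-aKG and 83%, 79% and 75% in the controls. The last was at 100% in each DM-aKG library and at 87%, 97% and 100% in the controls. The means were 79.1% ± 7.0 with DM-aKG and 88.7% ± 1.01 in the controls (SD, n = 3 each). The difference was -9.61 points, and -5.58 without DM-aKG replicate 3. Of 8 windows of Axin2, 6 were lower and 2 higher in mean, from -9.61 to 6.53 points.

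Tcf7 encodes TCF1, a transcription factor that works with β-catenin. Its window, chromosome 11 from 52284000, is centred 1.49 kb upstream of the nearest RefSeq start. It was at 64.0%, 67.2% and 54.1% with DM-aKG, against 72.8%, 73.6% and 74.2% in the controls, with means of 61.8% ± 6.83 with DM-aKG and 73.5% ± 0.723 in the controls (SD, n = 3 each). The controls lay close together and DM-aKG replicate 3 was the lowest. The difference was -11.7 points over 9 positions, 7 lower and 2 higher in mean. At 52284629 the levels were 70%, 71% and 71% with DM-aKG and 100%, 88% and 96% in the controls. Of the 23 rows in the window, 4, 3 and 13 were listed at 0 in the DM-aKG libraries, against 0, 2 and 4 in the controls. Without DM-aKG replicate 3 the difference was -7.91 points, and with 0 as a level it was -18.2.

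None of the 19 measured Wnt ligands and receptors held a chosen window, while Wnt7b and Ror2 held windows of the mirrored rule. Tmem88, known as an inhibitor of Wnt signalling that binds Dishevelled, overlaps Kdm6b in a window on chromosome 11 from 69398000. Kdm6b is a histone H3K27 demethylase that depends on α-ketoglutarate, and was 1 of 9 measured genes on the list of such dioxygenases. That window was at 77.4%, 77.4% and 75.5% with DM-aKG, against 86.5%, 77.9% and 78.0% in the controls, and its difference of -4.03 points was -1.20 without control replicate 1 and -14.1 with 0 as a level.

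The Notch list had 2 of its 12 measured genes, while Notch3 held a window of the mirrored rule. Jag2, a Notch ligand, had a window of 7 positions at 87.1%, 87.7% and 89.0% with DM-aKG, against 97.0%, 90.1% and 92.9% in the controls. The difference was -5.38 points, -3.55 without control replicate 1 and -0.542 with 0 as a level. Of 7 windows of Jag2, 2 were lower and 5 higher in mean, with a median of 0.558 points. The lowest, at -6.58 points, did not meet the rule, since its groups overlapped. Maml3, a Notch coactivator, had 31 windows, 17 lower and 14 higher in mean, and 1 of them, at -4 points, met the rule. Without control replicate 2 that window differed by -2.40 points.

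Ezr was the enterocyte list's member, 1 of 12 measured. It encodes ezrin, which ties the microvillus membrane to actin. Its window had 4 adjacent positions on 2 CpGs, from 91.0% to 100% in group means, and a difference of -4 points. Of 10 windows of Ezr, 5 were lower and 5 higher in mean, and the lowest, at -4.33 points, did not meet the rule. No chosen window fell in the measured genes of DNA methylation machinery (12 genes), while Uhrf1, Tet1, Mbd2 and Zbtb4 held windows of the mirrored rule. None fell in those of glutamine and α-ketoglutarate metabolism (16), the secretory lineage (9), germline genes (18), imprinted genes (25), housekeeping genes (4) or developmental genes under polycomb (8). The same was true of the markers of fibroblasts (11), immune cells (8) and endothelium (4), cells that an organoid culture could hold beside epithelium. A count of 0 in lists of these sizes is close to the 2.95% over all genes. Windows of the mirrored rule were held by 4 imprinted, 3 germline, 2 fibroblast, 1 immune and 1 endothelial gene of these lists, and by 1 gene each of the secretory and polycomb lists.

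The 8 windows with the most positions differed by -9.07 to -4.12 points, around the median of -5.82 over the 271. The window in Gm28068 had 32 positions on 18 CpGs, 27 of them lower in mean, and was at 70.1%, 69.6% and 70% with DM-aKG. The controls were at 84.3%, 71.2% and 72.4%, so that the difference was -6.08 points and -1.89 without control replicate 1. Abca7, a lipid transporter gene, had 31 positions, 23 lower and 8 higher in mean. It was at 83.9%, 85.8% and 80.8% with DM-aKG, against 91.3%, 89.6% and 87.5% in the controls, and its 3 rows with a missing value held 4 values at 0 with DM-aKG and none in the controls. The second window of Abca7 differed by -4.19 points and did not meet the rule.

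Irf2bpl had 22 positions, 16 of them lower in mean, at 74.5%, 77.5% and 75% with DM-aKG, against 85.6%, 82.3% and 80.6% in the controls. In Cdh22, a cadherin gene, 19 of 23 positions were lower in mean, and the window was at 67.8%, 68.8% and 66.7% with DM-aKG, against 73.4%, 72.1% and 71.7% in the controls. Spread within each group was small at Cdh22, with SDs of 1.09 and 0.888 points (n = 3 each) beside a difference of -4.68, which was -1.47 with 0 as a level. In Dusp27, a member of the dual-specificity phosphatase family, 19 of 20 positions were lower in mean, and the difference was -9.07 points, or -5.42 without control replicate 1.

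At Drosha, the nuclease that begins microRNA processing, and at Mfsd5, a membrane transporter gene, DM-aKG replicate 3 stood apart. The Mfsd5 window was at 96.5%, 97.5% and 89.0% with DM-aKG, against 99.2%, 98.9% and 98.7% in the controls. Without that library the differences were -1.90 points at Mfsd5, -1.58 at Drosha, and -3.76 in the window 3546 bases from Trim80, in place of -4.56, -4.12 and -7.30. All 6 windows of Drosha were lower in mean, and the lowest, at -5.81 points, did not meet the rule.

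No 2 of the chosen windows touched, and 2 pairs lay within 10 windows of each other. With 72 tested windows touching a chosen one and 1.09% of all windows chosen, a count of 0 is close to that share. The first pair, in and 3206 bases beyond Ap1b1, a clathrin adaptor gene on chromosome 11, differed by -5.81 and -5.78 points. The second lies within Myo15b, a myosin gene, at -4.30 and -7.13 points. The first of these was -1.95 without control replicate 2 and 3.57 with 0 as a level, and the second -16.1 with 0 as a level. The tested windows touching a chosen one numbered 72, other neighbours having fewer than 4 complete positions; their median difference was 0.533 points and 37.5% were below 0, against 0.8 points and 35% over all windows. Within 5 windows on each side the median was 0.517 points over 230 windows.

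The 271 windows overlapped the spans of 232 genes, and 13 genes held 2 of them, among them Scube1, Pitpnc1, Myo15b, Ksr1, Myo18a and Zfand3. Near a gene end, within 1000 bases, lay 20.3% of the chosen windows and 15.7% of all windows. Inside genes lay 64.9% and 67.8%, and outside genes 14.8% and 16.5%. The annotation gives gene spans without exons, so exons and introns are not separated here. Chromosome 11 held 51 of the 271 (18.8%, against 14.2% of all windows), and the share within the rule ran from 0.706% of windows on chromosome 13 to 1.44% on chromosome 11.

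Windows with few positions and partly methylated windows met the rule more often, and the same held for the mirrored rule. With 4 or 5 positions 1.41% of windows met it, with 6 to 9 positions 1.11%, and with 10 or more 0.697%. Under the mirrored rule the shares were 5.9%, 5.0% and 3.69%. Of the 271, 121 rest on 3 or fewer distinct CpGs (44.6%, against 32.3% of all windows). By mean level over the 6 libraries, the share within the rule was 3.26% of windows under 70%, 1.44% from 70 to 80%, 1.23% from 80 to 90% and 0.747% at 90% or more. Under the mirrored rule the shares of these classes were 6.64%, 11.3%, 6.6% and 1.94%.

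**Figure D4:**
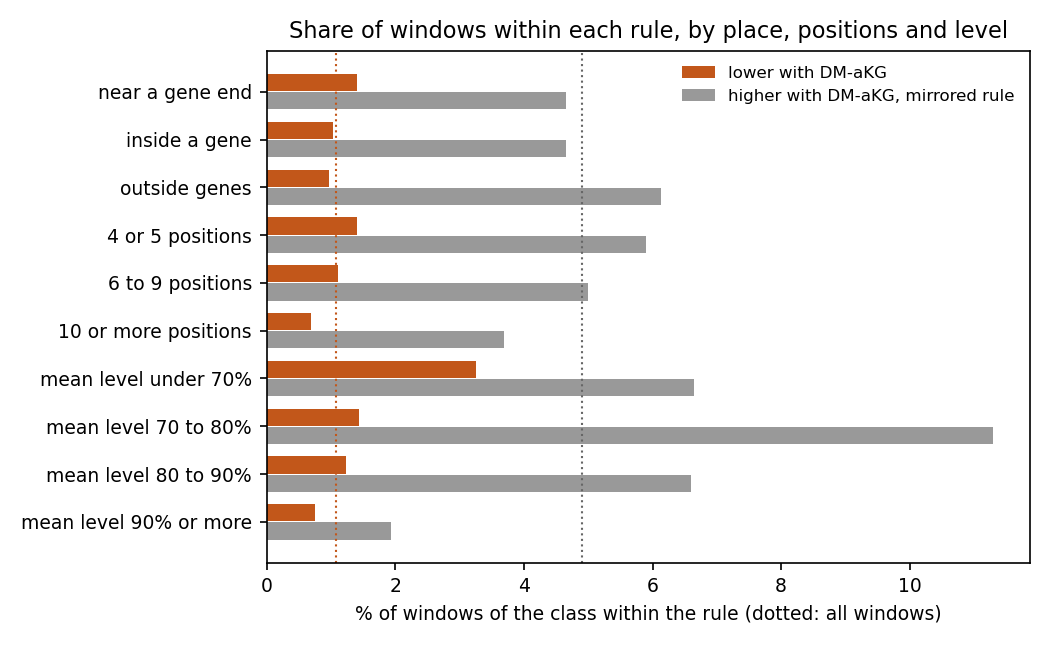
Percent of the windows of each class (horizontal axis; classes of place, position number and mean level run down the page) that met the rule for lower levels with DM-aKG (orange) or the mirrored rule (grey); dotted lines show 1.09% and 4.9% over all windows. The orange bar is longest for windows with a mean level under 70%, at 3.26%, and shortest for 10 or more positions, at 0.697%.

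The positions within the windows are the values that chose them, so counts of lower positions follow in part from the rule. Of 1995 positions, 1564 (78.4%) were lower and 318 (15.9%) higher in mean with DM-aKG, which the rule favours; over all tested windows 40.4% were lower. Every position was lower in 62 windows, and at least 3 in 4 positions in 183. The rule favours these counts and those of pairs as well, and they are not given over all windows. Of 798 pairs of directly adjacent measured cytosines, both were lower in 483, and they went opposite ways in 207. Most such pairs are the strands of a CpG, but where CpGs follow directly some join neighbouring CpGs. Leaving out the position that was lowest relative to control kept 64 of the 271 windows within the rule. It left 93 with no overlap and 269 lower in mean.

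Positions without a value in all 6 libraries did not enter the window means, although they come from the same libraries and the same comparison. In 121 of the 271 windows, 307 such positions had a value in at least 2 libraries of each group. They averaged 67.3% with DM-aKG and 69.9% in the controls, a mean difference of -2.57 points with a median of -0.5; 159 were lower, 113 higher and 35 equal. The 22482 such positions of the other windows averaged 73.9% with DM-aKG and 72.6% in the controls, a mean of 1.26 points with a median of 0. By window, 60.3% of the 121 were lower at these positions, against 39.6% of all windows that had any. In windows of the mirrored rule, 1443 such positions had a mean difference of 2.91 points, the other way. Of these, 474 were lower, 833 higher and 136 equal.

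A row listed at 0 in any library was left out of the window means, and such rows overlap with the positions above. A 0 thus decided which positions and windows the rule could use. The shares at 0 come from the same libraries and the same comparison. In the chosen windows 12%, 11.5% and 13.1% of 2684 rows were at 0 in the DM-aKG libraries, against 9.61%, 9.13% and 9.02% in the controls, and the groups did not overlap. Over all windows the shares were 8.64%, 8.0% and 8.07% with DM-aKG and 9.97%, 6.79% and 6.62% in the controls, and the groups overlapped. In windows of the mirrored rule they were 8.99%, 9.05% and 8.37% with DM-aKG and 14.4%, 7.77% and 8.13% in the controls. There too the groups overlapped, and control replicates 2 and 3 lay below every DM-aKG library. A 0 may be a level under 40% or a missing call, and which of these moved with the windows was not tested.

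**Figure D5:**
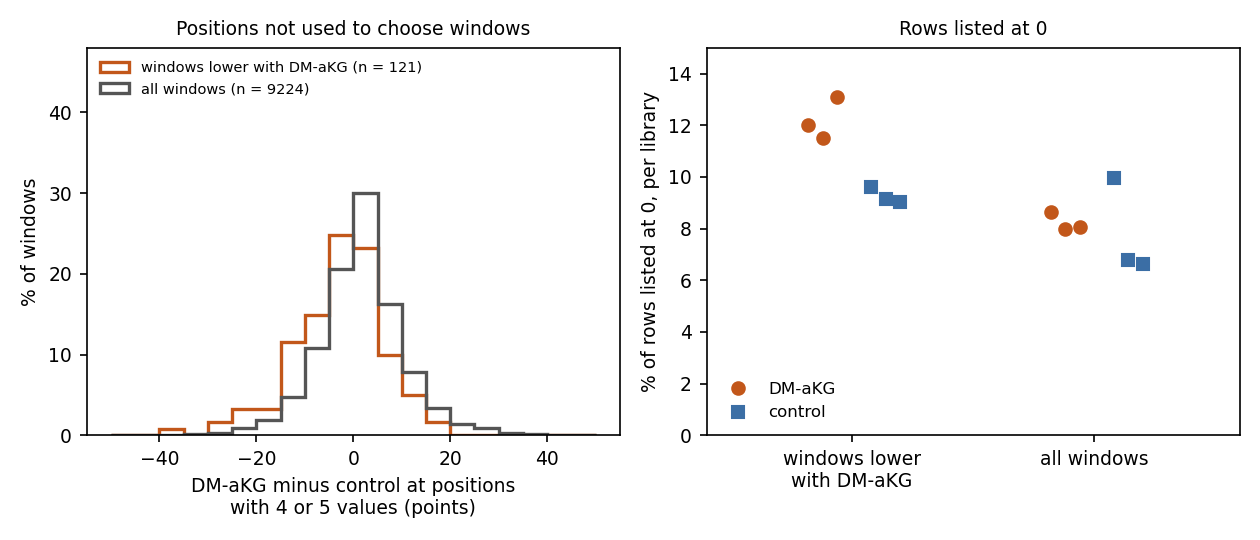
Left, percent of windows (vertical axis) by the mean difference, DM-aKG minus control in points, for 121 chosen windows and 9224 of all windows. The difference is taken at positions with 4 or 5 values, which did not enter the window means. Right, percent of rows listed at 0 in each library, where the 3 DM-aKG libraries are at 11.5% to 13.1% in the chosen windows and the controls at 9.02% to 9.61%.

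Fitted across all 24947 windows with limma, 0 had an adjusted p under 0.05 in either direction (Benjamini-Hochberg), so the percent called was 0. An unadjusted p under 0.05 was reached by 263 windows lower (1.05%) and 1233 higher (4.94%) with DM-aKG, and the smallest adjusted p was 0.76. None of the 271 windows passed the adjusted threshold.

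At the threshold itself, named windows in Kdm6b, Maml3, Ezr and Rptor, the scaffold gene of the mTOR complex 1, had differences between -4.03 and -4 points. A window 3896 bases from Xdh also stood at -4 points, and at -1.93 without control replicate 1, with libraries at 80.4%, 80.1% and 78.1% with DM-aKG and 87.7%, 82.4% and 80.6% in the controls. Just outside, with no overlap, were windows in Galnt3, which starts mucin-type O-glycans, at -3.97 points, at Hspb9 at -3.97 and in Epha4, an ephrin receptor gene, at -3.95. Galnt3 was at -2.39 points without DM-aKG replicate 1 and Epha4 at -2.57 without control replicate 1. With 0 as a level Epha4 was at -11.8 and Rptor at -9.74 points.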

How the data were processed

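The authors deposited 1 table with the percent of methylation per cytosine position in 6 libraries, in whole numbers; the build was mm10 and CASAVA 1.8 and Novoalign 3.08.02 are named, per the submitters' processing notes. The sources used here name no methylation caller or coverage filter. The table has 813850 rows, of which the first 390208 (47.9%) were used and 272327 had a value in all 6 libraries. Of 4504 used rows inside RefSeq start stretches, 99.9% fall on a CpG if positions count from 1 and 55.5% if from 0, so positions are printed as counted from 1. Windows were averaged per library with Python 3.11.15 and pandas 2.3.3. All windows with 4 or more complete positions were fitted with limma 3.58.1 in R 4.3.3 on untransformed levels, without a replicate block, adjusted by Benjamini-Hochberg at 0.05, and the fit was tested on simulated data. Gene spans are those of 20661 protein-coding or lncRNA genes (GRCm38.p6). The named windows are the 12 largest decreases, the 8 with most positions, those at protein-coding starts, those of listed genes, runs, and those nearest the threshold; the positions singled out in them were chosen after their values were seen. Of the 12 largest decreases, 1 is not reported in the text here. The windows, lists and rules were chosen with earlier results of these data known. RefSeq start stretches of chromosome 18 are not used here.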

Additional observations from a re-analysis of the deposited data

How the results depend on the processing

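The number of windows within the rule moved with most settings, and with some the number tested moved too. A minimum of 3 positions gave 410 of 32453 windows (1.26%), and of 8 positions 86 of 11210 (0.767%). With opposite-strand cytosines averaged it was 164 of 16874 (0.972%). The main setting gave 1.09% of 24947 windows. Of these 24947, 129 met the rule at -6 points and 380 at -3 points. Without the position that fell most, a setting chosen after seeing the data, 64 of the 271 did. Leaving out DM-aKG replicate 1, 2 or 3 gave 544, 619 and 540, and leaving out control replicate 1, 2 or 3 gave 468, 647 and 569, since fewer libraries have less chance to overlap; between 215 and 257 of the 271 were among them. With library means equalised 580 windows met the rule and 722 the mirrored one, so the lower share was 44.5% in place of 18.1%. With 0 as a level, 1619 of 34367 windows (4.71%) met the rule and 2167 (6.31%) the mirrored one. Of the 1619, 155 were shared with the 271. Other window sizes and offsets gave 249 to 300. The fit called 1 window with a minimum of 3 positions, 97 with 0 as a level, and 0 under the other alternatives. Of the 97, 77 were lower, and none of these was among the 271. Of the 77, 52 lacked 4 complete positions and so could not have been chosen, and 25 were tested windows. Same-numbered libraries had correlations of deviations of 0.0595, -0.0249 and 0.0468, against -0.0751 to 0.0566 between libraries of different numbers. The labels do not say whether the numbers pair libraries, and these values cannot decide it. With the replicate block the fit called 0, with 301 lower and 1329 higher at an unadjusted p under 0.05. With a wider margin at gene ends, 30.3% of the 271 lay near an end, against 23.9% of all windows, and 58.7% inside genes. Of 38 named windows, 18 moved by over 1.5 times without 1 library, 10 of them most without control replicate 1. With 0 as a level the differences were 0.307 points at Dcdc2c, 4.78 at Pde7b and 3.57 at the first Myo15b window; the causes were not tested. Another 17 of the 41 named windows moved by more than the replicate spread with 0 as a level, among them Pik3r5, Jag2 and Cdh22 to under 4 points, and 21 did not. No other of the 41 named windows changed direction with 0 as a level, without 1 library or, for the 30 with a value, with opposite-strand cytosines averaged. The missing read depth limits every level.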
